A study of Mus musculus with 19 samples.

Results

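The 8 genes described here encode surface proteins used to recognise or isolate epithelial progenitor cells: Plet1, Epcam, Cd24a, Prom1, Cd9, Upk2, Ly6a and Bst2. They are a list of names, 8 of the 54179 genes counted in the series. The study isolated the third pharyngeal pouch of wild type C57BL/6 mouse embryos at E10.5 (E, embryonic day) and the thymic primordium at E12.5, stained the dissociated cells, and sorted single cells that carried both EPCAM and PLET1 protein on their surface into 96-well plates. RNA was counted with the BD Precise WTA kit, in which every well has its own barcode and every captured RNA a molecular index; the sample titles name SmartSeq2 instead. The deposited table holds 4 plates of each stage, named a to d for E10.5 and a and c to e for E12.5. Each plate is 1 library, no treatment was applied, and how many embryos or litters a plate holds is not given in the sources used here. The p-values therefore measure the spread between plates, which may be technical.

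EPCAM is an adhesion protein of epithelial cells, and PLET1 is a lipid-anchored protein of early embryonic epithelia that marks the pouch endoderm from which the thymus and parathyroid arise. CD24 and prominin 1, the products of Cd24a and Prom1, are used to sort stem and progenitor cells of several tissues, and CD9 is a tetraspanin that organises other membrane proteins. Uroplakin 2, encoded by Upk2, is a plaque protein of the bladder lining, and Ly6a (Sca-1) and Bst2 (tetherin) encode lipid-anchored or membrane-tethered proteins that interferon can induce.

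Of 733 wells in the table, 711 passed the study's stated filters on reads, genes and mitochondrial share, 356 at E10.5 and 355 at E12.5. The labels state 376 collected cells per stage. The paper reports a filtered set of a different size at each stage, so the cells kept here are not exactly that set. The plates had a median of 130836 to 209514 protein-coding reads per cell and differed more in captured molecules. The median number of molecules per cell in the first sequencing run lay between 1305 on E10.5 plate a and 5175 on E10.5 plate c, and between 1813 and 5169 at E12.5. Foxn1, which encodes the master transcription factor of thymic epithelium, was read in 0 to 3.26% of cells on the E10.5 plates and in 57.1 to 76.4% on the E12.5 plates at 40000 reads per cell. Of 6 blood markers, Cd3e and Hbb-bt had no read at either stage, and the 6 together reached at most 17.1 CPM (reads per 1000000 protein-coding reads) on any plate. The 5 mesenchyme markers together reached at most 21.4 CPM and the 4 endothelial markers 24.98 CPM, with Cdh5 and Tie1 at 0.

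Plet1 (ENSMUSG00000032068) lies on chromosome 9 at 50494525 to 50505482 on the plus strand, and Epcam (ENSMUSG00000045394) on chromosome 17 at 87635979 to 87651129 on the plus strand, in the GRCm38 annotation. The 250 bases before each start site are shown because these genes encode the proteins on which every cell was sorted. They are given 5′ to 3′ from RefSeq (GRCm38.p6), with motif matches in capitals; 5 of the 8 genes had such an entry. The motifs sought on both strands were the TATA box, spelled TATAAA, the CCAAT box, spelled CCAAT, and the GC box, spelled GGGCGG, with no overlap between the matches shown.
Plet1, chr9:50494275-50494524, plus strand: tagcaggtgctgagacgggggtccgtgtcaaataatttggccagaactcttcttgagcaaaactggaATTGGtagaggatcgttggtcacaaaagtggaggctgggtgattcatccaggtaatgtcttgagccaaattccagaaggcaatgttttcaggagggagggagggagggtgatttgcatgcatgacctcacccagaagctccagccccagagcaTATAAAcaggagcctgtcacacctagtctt
Epcam, chr17:87635729-87635978, plus strand: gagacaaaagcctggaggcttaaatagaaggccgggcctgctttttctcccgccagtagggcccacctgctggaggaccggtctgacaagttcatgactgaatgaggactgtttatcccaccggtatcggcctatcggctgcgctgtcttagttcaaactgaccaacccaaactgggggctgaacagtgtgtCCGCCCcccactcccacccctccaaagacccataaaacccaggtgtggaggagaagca
The Plet1 window held 1 TATA box and 1 CCAAT box read from the other strand, and 3 CpG pairs. The Epcam window held 1 GC box read from the other strand, no TATAAA, and 8 CpG pairs. Over all 32851 RefSeq windows of this length, 12.4% held the TATA box letters, 33.9% the CCAAT box and 32.7% the GC box, so each match is a description and not a mapped site.

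The first comparison asked whether the transcripts of the sorted proteins, and of the other 6 markers, changed between the pouch and the thymic primordium. Plet1 transcript was lower at E12.5 and Epcam transcript was not shown to differ, although every cell had been gated on both proteins. In reads summed over the cells of each plate, Plet1 stood at 271, 279, 304 and 409 CPM on E10.5 plates a to d. On the E12.5 plates, in the order of their letters, it stood at 50.0, 128, 55.1 and 68.9 CPM. No E12.5 plate reached an E10.5 plate; over all genes with a read, 4.81% were lower at E12.5 without overlap. The means were 316 ± 63.6 and 75.5 ± 35.9 CPM (SD, n = 4), and the log2 fold change was -2.17 with a standard error of 0.35 (adjusted p = 0.0033, edgeR's quasi-likelihood test with Benjamini-Hochberg adjustment over 11499 genes). Plet1 was the only member that passed the test among the 7 tested, beside 6.24% of all genes tested (2.44% lower and 3.80% higher at E12.5). Without the cells that carried neural or parathyroid markers, the log2 fold change of Plet1 was -2.62 (SE 0.32, adjusted p = 0.00068 in the same edgeR test).

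Epcam stood at 450.5, 420.4, 491 and 436 CPM on the E10.5 plates and at 626, 734, 340.4 and 280.0 CPM on the E12.5 plates. The E12.5 plates lay on both sides of all E10.5 plates, with a mean of 495 ± 219 against 449.7 ± 30.4 CPM (SD, n = 4). The log2 fold change was 0.02 with a standard error of 0.26 and a 95% interval from -0.50 to 0.54 (edgeR, adjusted p = 0.98), and its sign turned when single plates were left out.

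**Figure D1:**
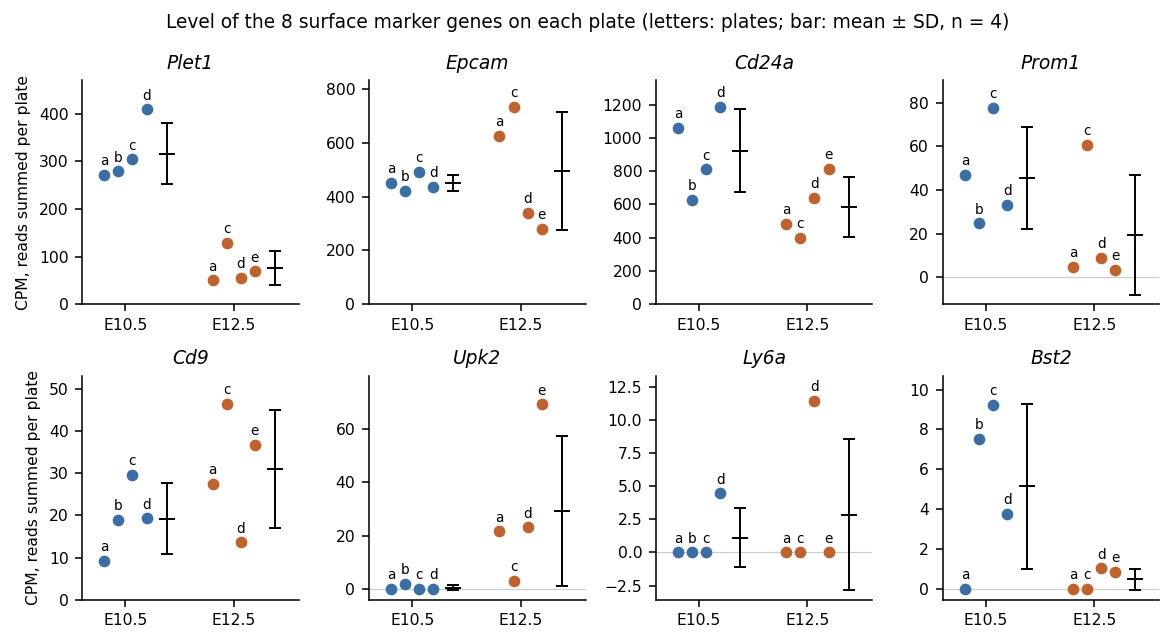
Level of each gene in reads summed per plate (vertical axis, CPM, own scale per gene) at E10.5 (blue) and E12.5 (orange); letters name plates and bars give the mean ± SD of 4 plates. Plet1 is between 271 and 409 CPM at E10.5 and between 50.0 and 128 at E12.5, while the Epcam plates of the stages overlap.

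The lower level of Plet1 at E12.5 came with a lower mean share of cells in which the transcript was read, although the plates of the stages overlapped. Median levels in those cells were also lower. To compare cells of different depth, each was thinned to 40000 protein-coding reads, and a cell counted as positive with 1 read or more; intervals are exact binomial 95% intervals and cover counting error only, since amplified reads are not independent molecules. At E10.5, Plet1 was read in 10 of 88 cells on plate a (11.4%, 5.59 to 19.9%), 36 of 91 on plate b, 43 of 85 on plate c and 40 of 92 on plate d, or 39.6 to 50.6% on the last 3 plates. At E12.5, it was read in 6 of 91, 8 of 90, 7 of 85 and 16 of 89 cells in plate order, or 6.59 to 18.0%. Plate a of E10.5, the plate with the fewest molecules per cell, fell within the E12.5 range, and without it the stages did not overlap. E12.5 plates a and c, with medians of 2446 and 1813 first-run molecules per cell, were kept when it was left out. The highest E12.5 share, 18.0%, was on plate e, which had the most molecules of that stage at a median of 5169. Of all genes with a read, 3.59% had a lower and 4.84% a higher share at E12.5 without overlap on the 4 plates. Plet1, which overlapped on the 4 plates, is not among them. The same share over all genes without plate a was not computed. The stage means were 36.2 ± 17.2% and 10.4 ± 5.13% (SD, n = 4), and 44.5% at E10.5 without plate a.

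Molecular indices gave the same order. The first run held 197 Plet1 molecules at E10.5 and 35 at E12.5. Of the cells with a molecule, 54 of 115 held more than 1 at E10.5 and 3 of 30 at E12.5, so most positive E12.5 cells rested on a single captured RNA. Among cells with a Plet1 read at full depth, the median level was 814, 609, 398 and 690.2 CPM on the E10.5 plates and 94.7, 25.1, 306 and 189 CPM on the E12.5 plates. These were 147 cells at E10.5 and 54 at E12.5, beside the 115 and 30 with a molecule. A larger part of the E12.5 cells thus had no first-run molecule, which may lower their medians. The highest cell of a plate reached 2580 to 9425 CPM at E10.5 and 1136 to 3851 CPM at E12.5, so the ranges overlapped. Cells with a Plet1 read were deeper than cells without one on all 4 E10.5 plates, with median first-run molecules of 5330 against 3824 at most apart, on plate d. At E12.5 they were deeper on plates d (4219 against 3430) and e (5564 against 5099) and shallower on plates a (2282 against 2454) and c (1760 against 1813). The part of depth in detection was not tested.

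Epcam was found in most cells of both stages. It was read in 49, 76, 74 and 80 cells of the E10.5 plates, or 55.7 to 87.1%, and in 78, 62, 74 and 84 cells of the E12.5 plates, or 68.9 to 94.4%. The stage means were 78.3 ± 15.2% and 84.0 ± 10.8% (SD, n = 4), and plate a of E10.5 was again the lowest. First-run molecules numbered 803 at E10.5 and 666 at E12.5, and 176 of 246 and 169 of 264 positive cells held more than 1.

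Set against the sort, the paired detection of Plet1 and Epcam fell short of all cells at both stages. Both transcripts were read in 120 of 356 E10.5 cells, 5.68 to 50.6% by plate, and in 36 of 355 E12.5 cells, 6.59 to 16.9% by plate. Epcam alone was read in 159 E10.5 cells and 262 E12.5 cells, a mean of 44.6 ± 5.84% against 73.9 ± 9.27% of cells (SD, n = 4). This class is set by the lack of a Plet1 read, so it is not separate from the lower share of Plet1. Plet1 alone was rare, in 9 cells at E10.5, of which 5 were on plate a, and in 1 cell at E12.5. Neither transcript was read in 68 cells at E10.5, 34 of them on plate a, and in 56 at E12.5, 28 of them on plate c. By first-run molecules, neither was found in 96 and 88 cells. At this depth a cell without a read cannot be called a cell without the transcript.

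**Figure D2:**
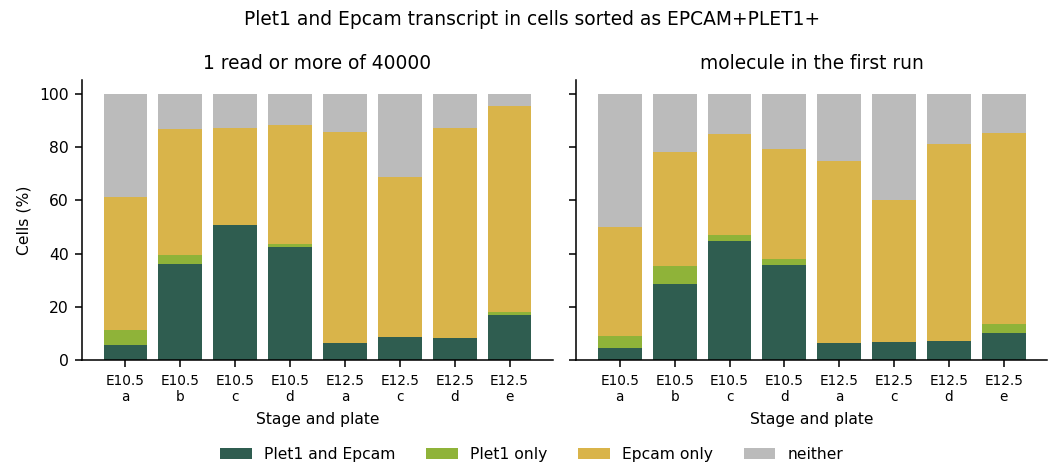
Share of cells (vertical axis, %) with Plet1 and Epcam, either alone or neither on each of 8 plates, by 1 read or more of 40000 (left) and by a molecule in the first run (right). Epcam alone is the largest class on every E12.5 plate, at 60.0 to 79.1% of cells by reads.

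Low-level signal was also read in wells outside the table and in thymic genes at E10.5. The same 4 well positions are absent from the table on every plate, which makes 32 wells. Further wells absent on E10.5 plate c and E12.5 plate d were not examined. Of these, 16 held 203 to 2203 reads and the other 16 held 21234 to 66934 reads with up to 2088 molecules; what any of them contained is not given in the sources used here, so they are not shown to be empty. Plet1 had 35 reads over these 32 wells, 30 of them in 1 well, and Epcam had 136 reads with at most 67 in a well; each had a molecule in 1 well. At E10.5, the thymic genes Psmb11 and Prss16 were read in up to 6.59 and 9.89% of cells of a plate with 1 read or more. With 3 reads or more, they were read in 0 and up to 3.53%. Foxn1 was also low, at up to 3.26% with 1 read or more. Ccl25, Pax1 and Pax9 reached 31.9, 30.4 and 18.2% of cells of an E10.5 plate with 1 read or more. With 3 reads or more, they still reached 16.5, 22.8 and 13.6%. Whether reads of these thymic genes at E10.5 are background or transcript was not tested. Asking for 3 reads left Plet1 in 9.01 ± 4.48% of E12.5 cells and in 32.3 ± 15.4% of E10.5 cells (SD, n = 4). In the annotation, 13.4% of the exonic bases of Plet1 are also exons of Plet1os on the opposite strand, and whether counting used strand is not given in the sources used here. Plet1os itself held 0 to 34 reads a plate beside 821 to 5872 for Plet1.

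Cd24a (ENSMUSG00000047139, chromosome 10, 43578284 to 43584265, plus strand) was found in nearly every E10.5 cell. It stood at 1061, 629, 810.3 and 1184 CPM on the E10.5 plates and at 484, 400.1, 641 and 812 CPM on the E12.5 plates, and the stages overlapped. The means were 921 ± 249 and 584 ± 182 CPM (SD, n = 4), and the log2 fold change of -0.70 (SE 0.33) did not pass the edgeR test (adjusted p = 0.31). Cells with a read made up 88.6 to 100% at E10.5 and 70 to 97.8% at E12.5. Cd24a has processed copies elsewhere in the genome, and how such reads were assigned was not tested, so its level is uncertain.

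Prom1 (ENSMUSG00000029086, chromosome 5, 43993620 to 44102032, minus strand) was low in level. It stood at 47.1, 24.7, 77.9 and 33.1 CPM on the E10.5 plates and at 4.87, 60.8, 8.95 and 3.49 CPM on the E12.5 plates. Plate c of E12.5 stood apart from the other E12.5 plates, and 1 cell gave 67.8% of its Prom1 reads. The log2 fold change of -1.35 (SE 0.80, edgeR adjusted p = 0.44) became -3.0 (SE 0.57, adjusted p = 0.014) without that plate. Cells with a read made up 8.70 to 43.5% at E10.5 and 2.20 to 10% at E12.5. The highest share, on E10.5 plate c, rested on 909 reads that the first run resolved to 3 molecules and the repeat run to 32.

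Cd9 (ENSMUSG00000030342, chromosome 6, 125460266 to 125494791, minus strand) was not shown to differ between stages. It stood at 9.15, 18.9, 29.6 and 19.3 CPM on the E10.5 plates and at 27.5, 46.5, 13.6 and 36.8 CPM on the E12.5 plates. The plates overlapped, with means of 19.3 ± 8.37 and 31.1 ± 14 CPM (SD, n = 4), and the log2 fold change of 0.59 (SE 0.51, 95% interval -0.42 to 1.59) did not pass the edgeR test (adjusted p = 0.62). Cells with a read made up 4.55 to 31.8% and 14.3 to 29.2%. On E12.5 plate e, 570 Cd9 reads came to 1 molecule in the first run and 63 in the repeat run, so molecule counts of this plate depend on the run.

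Upk2 (ENSMUSG00000041523, chromosome 9, 44452715 to 44454976, minus strand) was read in 2 E10.5 cells and 23 E12.5 cells of the table at 40000 reads. It stood at 0, 2.04, 0 and 0.070 CPM on the E10.5 plates and at 21.6, 2.95, 23.0 and 69.1 CPM on the E12.5 plates. The 4 plates of each stage in the table did not overlap in level or in the share of cells at 40000 reads, which was 0 to 1.1% against 2.22 to 12.4%. At full depth the shares did overlap, with 3.30% on E10.5 plate b against 2.22% on E12.5 plate c. E12.5 plate b, sequenced in 1 run and not in the table, had no Upk2 read in 92 cells and so lay in the E10.5 range; with it the edgeR adjusted p was 0.11. Over all genes with a read, 11.4% did not overlap in level, 6.59% being higher at E12.5, and 8.43% did not overlap in share. The 27 reads on E10.5 plate b came to 1 molecule, as did the 43 reads on E12.5 plate c. The gap between these 2 plates thus rested on 1 captured RNA each. E12.5 held 61 molecules, 46 of them on plate e. The log2 fold change was 5.76 (SE 1.54) with an adjusted p of 0.051 in edgeR and 0.014 in DESeq2, which called 11.1% of genes, so the call depends on the tool. Without E12.5 plate e the log2 fold change was 4.74 (edgeR adjusted p = 0.17), and without E10.5 plate b, it was 9.77 (adjusted p = 0.0077).

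Ly6a (ENSMUSG00000075602, chromosome 15, 74994877 to 74998031, minus strand) and Bst2 (ENSMUSG00000046718, chromosome 8, 71534255 to 71537456, minus strand) were at the limit of detection. Ly6a was read in 1 cell of each stage, with 64 reads on E10.5 plate d and 200 reads on E12.5 plate d, and had too few reads for the test. These reads came to 1 first-run molecule at each stage. Ly6a belongs to a family of related genes, and how reads were assigned among them was not tested, so even these reads are uncertain. On the 6 other plates, 0 of 85 to 91 cells had a read, which allows a share of up to 3.30 to 3.53%. Bst2 stood at 0, 7.54, 9.25 and 3.76 CPM at E10.5 and at 0, 0, 1.03 and 0.84 CPM at E12.5, with 10 and 3 first-run molecules, and its log2 fold change of -3.44 (SE 1.84) did not pass the edgeR test (adjusted p = 0.38).

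**Figure D3:**
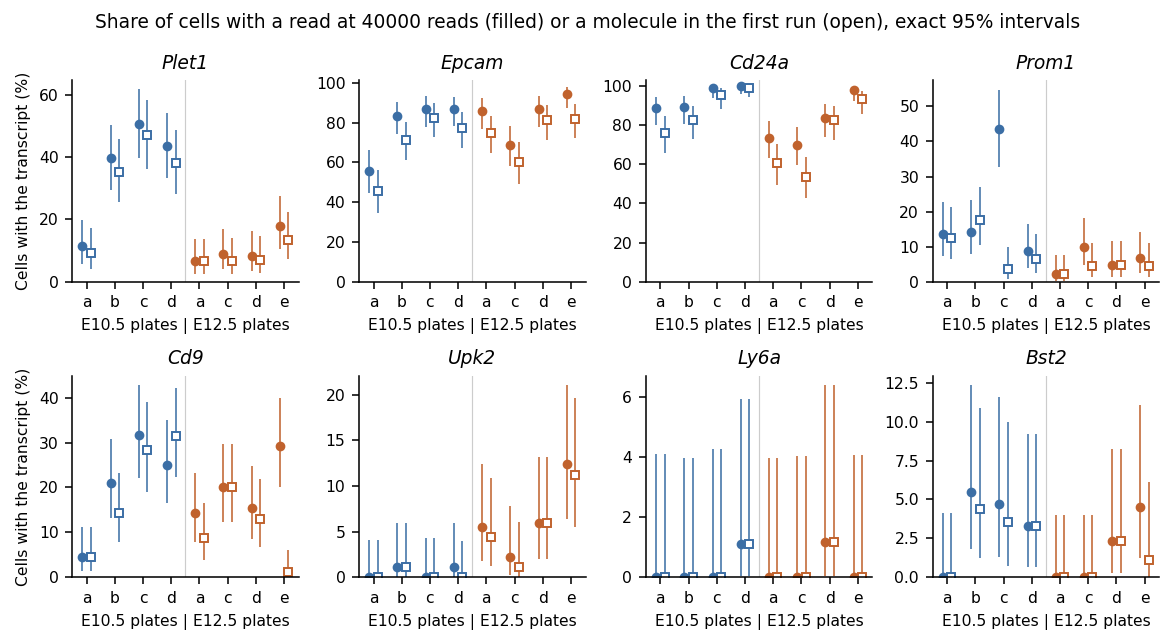
Share of cells with each transcript on each plate (vertical axis, %, own scale per gene), by 1 read or more of 40000 (filled) or a first-run molecule (open), with exact 95% binomial intervals, for the plates of E10.5 (blue) and E12.5 (orange). Reads and molecules part on E10.5 plate c for Prom1 and on E12.5 plate e for Cd9.

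The same stage test, which called 2.44% of all genes lower and 3.80% higher, was read for genes that work with the members. Of 10 partners and proteases of EPCAM, all tested, only Cdh1, which encodes E-cadherin, passed, rising from 26.7 ± 13.5 to 138 ± 43.7 CPM (SD, n = 4; log2 fold change 2.37, SE 0.36, edgeR adjusted p = 0.0024). Of 23 tetraspanins and tetraspanin partners, 19 were tested and 2 fell. Igsf8, which encodes a partner of CD9 and CD81, went from 96.7 ± 42.1 to 24.1 ± 6.01 CPM, and Tspan13 from 189 ± 61.6 to 69.5 ± 43.6 CPM (SD, n = 4; edgeR adjusted p = 0.014 and 0.033). Of 5 other uroplakin genes, 2 were tested and 1 rose: Upk3a had no read on any E10.5 plate and 18.5 ± 20.5 CPM at E12.5 (edgeR adjusted p = 0.0049), where its reads lay in the parathyroid-marker cells described below, at 146 ± 155 CPM against 0.017 ± 0.035 CPM in thymic cells (SD, n = 4). None of the 5 tested genes of 11 in the Ly6 family list passed.

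Of 16 interferon-responsive genes, the group to which Bst2 belongs, 9 were tested and none fell. Ifitm3, which encodes a membrane protein that restricts virus entry, rose from 92.1 ± 23.5 to 1041 ± 56.7 CPM (SD, n = 4; edgeR adjusted p = 4.8e-05). Of 7 other surface markers of thymic epithelium, 6 were tested and Ly75, which encodes the cortical marker DEC-205, rose from 3.73 ± 3.09 to 37.0 ± 3.91 CPM (SD, n = 4; edgeR adjusted p = 0.0099). The median log2 fold changes of these lists were -0.14, -0.24, 5.63, -0.52, 3.4 and 0.33 in the order given, beside 0.00 over all genes tested.

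The second question was how the members were spread over the kinds of cell that passed the gate. Cells were classed by transcripts other than the members. At E10.5, 65 cells had at least 50 CPM of 3 or more of 6 neuronal genes (neural-marker cells) and the other 291 were called endoderm. At E12.5, 46 cells had at least 50 CPM of 2 or more of the parathyroid genes Gcm2, Pth and Chga. Of the other 309 thymic cells, 49 had at least 100 CPM of 2 or more of Krt5, Krt17, Krt19 and Cldn4, genes of medullary and progenitor epithelium, and were called medullary-marker cells. Classes of 1 plate share its library, and 8, 15 and 25 cells lay within 2-fold of the neural, parathyroid and medullary limits.

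Neural-marker cells had lower Epcam. It stood at 120, 162, 131 and 202 CPM in the neural-marker cells of plates a to d and at 524, 473, 591 and 479 CPM in the endoderm cells, without overlap, where 9.29% of all genes did not overlap. The log2 fold change was -1.61 (SE 0.31, edgeR adjusted p = 0.045); this was the only member called of 5 tested, beside 0.718% of genes (0.226% lower and 0.492% higher; 5.44% in DESeq2), and with the plate as a block the adjusted p was 0.056. A read was found in 30 of 65 neural-marker cells and in 249 of 291 endoderm cells. The call was lost when any 1 plate was left out, with adjusted p from 0.066 to 0.28 and the log2 fold change between -1.79 and -1.49, and with the gate at 10 CPM (log2 fold change -1.05, adjusted p = 0.43).

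Plet1 reads at E10.5 lay mostly in endoderm cells. It stood at 0, 0, 54.9 and 96.6 CPM in the neural-marker cells and at 332, 336, 373 and 466 CPM in the endoderm cells, and was read in 2 of 65 against 127 of 291 cells. The log2 fold change of -3.13 (SE 1.37) did not pass the edgeR test on reads (adjusted p = 0.54). On molecules of both runs added it was -4.24 (SE 0.60, edgeR adjusted p = 0.00023). An RNA seen in both runs could be counted in each. That fit tested 3135 genes against 9752 on reads, so the adjusted p-values are not directly comparable. Cd24a, found in 63 of 65 neural-marker cells and 272 of 291 endoderm cells, had a log2 fold change of -0.16 (SE 0.32), Cd9 of 1.04 (SE 0.81) and Prom1 of -0.48 (SE 0.88), and none passed (edgeR adjusted p from 0.90 to 0.998). Upk2 and Ly6a were read in 0 of 65 neural-marker cells, which allows a share of up to 4.62%. Of the lists, Ly6h of the Ly6 family was lower in neural-marker cells, with no read there and 46.0 ± 12.2 CPM in endoderm, and the interferon-responsive Ifitm2 was higher, at 536 ± 81.7 against 175 ± 24.9 CPM (SD, n = 4; edgeR adjusted p = 0.019 for both).

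Parathyroid-marker cells had lower Cd24a than thymic cells. It stood at 172, 137, 118 and 178 CPM in the parathyroid-marker cells of the 4 plates and at 531, 445, 693 and 891 CPM in the thymic cells, without overlap, where 12.3% of all genes did not overlap. The log2 fold change was -2.23 (SE 0.38, edgeR adjusted p = 0.017), the only member called of 6 tested, beside 1.6% of genes (0.617% lower and 0.98% higher). Of the cells, 21 of 46 against 267 of 309 had a read. The call was lost without plate a, c or d (adjusted p = 0.11, 0.078 and 0.16), with the log2 fold change between -2.39 and -2.10. With the gate at 10 CPM it was -0.76 (edgeR adjusted p = 0.82).

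Epcam stood at 1124, 1658, 1031 and 430.0 CPM in the parathyroid-marker cells and at 552, 578, 272 and 261 CPM in the thymic cells of the same plates, and was higher on 4 of 4 plates. Its log2 fold change of 1.22 (SE 0.38) did not pass the edgeR test on reads (adjusted p = 0.14). On molecules of both runs added it was 1.17 (SE 0.28, edgeR adjusted p = 0.0082). That fit tested 3643 genes against 9894 on reads, so the adjusted p-values are again not directly comparable. Plet1 stood at 114, 379, 53.5 and 66.1 CPM against 40.6, 85.7, 55.2 and 69.2 CPM, higher on 2 of 4 plates (log2 fold change 1.09, SE 0.66, edgeR adjusted p = 0.62), and was read in 8 of 46 parathyroid-marker cells. Upk2 had no read in any parathyroid-marker cell and 3.44 to 77.6 CPM in the thymic cells of the 4 plates. A count of 0 of 46 cells allows a share of up to 6.52%, beside 7.44% of thymic cells with a read, and the difference did not pass in edgeR (adjusted p = 0.059) and did in DESeq2 (adjusted p = 1.1e-05), which called 9.4% of genes. Cd9 was at 11.1 to 45.5 CPM in parathyroid-marker cells and at 13.5 to 46.7 CPM in thymic cells, Prom1 at 0.47 to 59.1 and 2.54 to 69.2 CPM, and neither passed (edgeR adjusted p = 0.92 and 0.999). Of the lists, Spint2, which encodes an inhibitor of the proteases that cut EPCAM, was higher in parathyroid-marker cells at 277 ± 68.1 against 70.1 ± 17.5 CPM, as were Tspan6 at 482 ± 102 against 80.7 ± 21.2 CPM and Upk3a at the levels given above (SD, n = 4; edgeR adjusted p = 0.039, 0.0058 and 0.0025).

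No member passed the main test between medullary-marker and other thymic cells, in which 2 of 9643 genes did (0.0207%), with 514 at an unadjusted p under 0.05; DESeq2 called 200 genes (2.13%). The plates of Cd9, Plet1 and Prom1 did not overlap between the classes, and those of Upk2 did. Cd9 stood at 81.2, 150.2, 37.8 and 144 CPM in the medullary-marker cells of the 4 plates, in letter order, and at 16.5, 29.0, 6.93 and 12.4 CPM in other thymic cells; 6.45% of all genes did not overlap. Its log2 fold change was 2.76 (SE 0.68), with an adjusted p of 0.26 in edgeR and 0.00084 in DESeq2, and it was read in 22 of 49 against 37 of 260 cells.

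Plet1 stood at 139, 457, 148 and 75.2 CPM in the medullary-marker cells and at 21.7, 22.4, 29.9 and 67.6 CPM in the other thymic cells, again without overlap. Its log2 fold change was 2.44 (SE 0.63), with an adjusted p of 0.26 in edgeR and 0.0083 in DESeq2. It was 1.64 without plate c and 3.33 without plate e (edgeR adjusted p = 0.67 and 0.38). Of the 37 E12.5 cells with a Plet1 read at 40000 reads, 11 were medullary-marker, 18 other thymic and 8 parathyroid-marker cells, or 22.4, 6.92 and 17.4% of each class.

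Upk2 stood at 154, 0, 94.5 and 255 CPM in medullary-marker cells and at 0.083, 4.03, 6.54 and 30.4 CPM in other thymic cells, so plate c went against the other 3. It was read in 16 of 49 and 7 of 260 cells (log2 fold change 3.67, SE 1.64, edgeR adjusted p = 0.94). Prom1 had 1 read in all medullary-marker cells and 3.12 to 80.9 CPM in other thymic cells, and 0 of 49 cells at 40000 reads allows a share of up to 6.12% beside 6.54% (17 of 260 cells) in other thymic cells. Epcam and Cd24a had log2 fold changes of 0.02 (SE 0.34) and 0.55 (SE 0.36), and none of the listed partner genes passed.

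**Figure D4:**
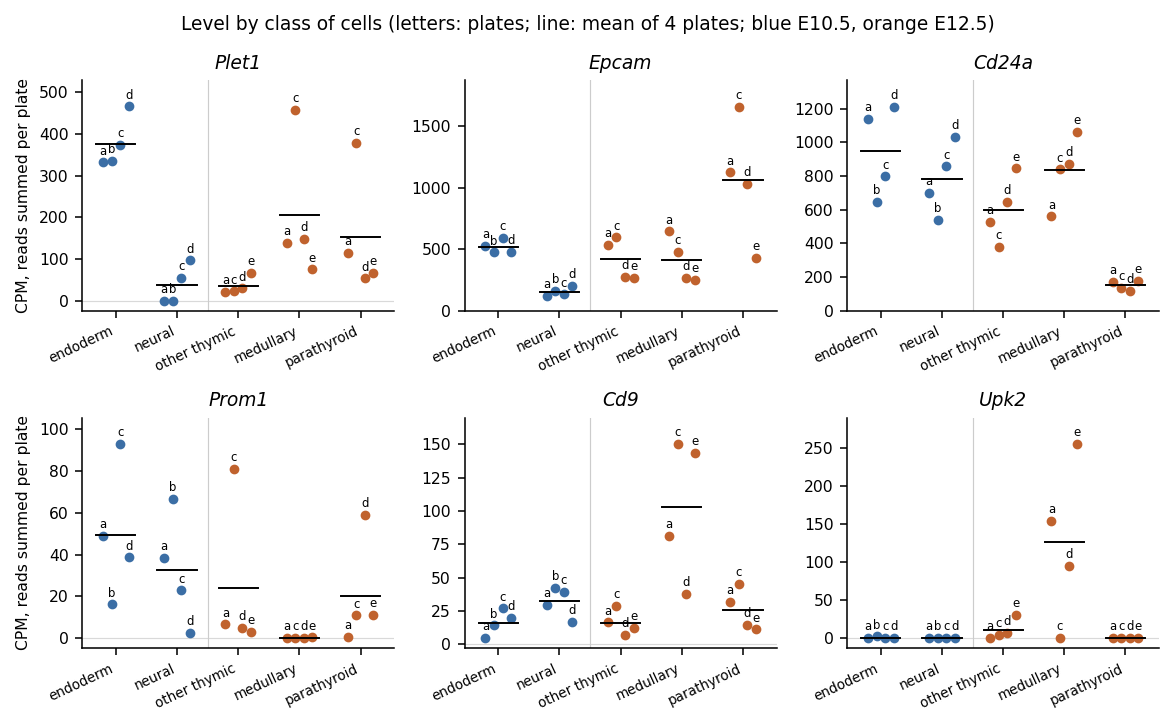
Level of 6 genes in reads summed per plate and class (vertical axis, CPM, own scale per gene) for endoderm and neural-marker cells at E10.5 (blue) and other thymic, medullary-marker and parathyroid-marker cells at E12.5 (orange); letters name plates and lines give the mean of 4 plates. Cd24a is at 118 to 178 CPM in parathyroid-marker cells and at 377 CPM or more in every other class and plate.

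The third question was which markers were found in the same E12.5 cell. Of 8 members, a cell held a median of 2 on each E12.5 plate and at most 6, at 40000 reads. For each of 28 pairs, the cells with both transcripts were set beside the number that the product of the pair's shares gives within each plate. In 18 pairs that number was 1 cell or more. Epcam and Cd24a were found in so many cells that a pair with either of them can hardly exceed its product, so these pairs say little on whether markers go together. Plet1 and Epcam were found together in 36 of the 37 cells with Plet1, where the product gave 31.8. Plet1 and Cd24a were found together in 34 cells, where it gave 31.5, and Epcam and Cd24a in 243, where it gave 245. Among pairs without Epcam or Cd24a, Plet1 and Cd9 were found together in 10 cells, where the product gave 8.20. The within-plate Spearman correlation of log2(CPM + 10) between Plet1 and Epcam was -0.06 to 0.07 over the 4 plates.

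Cd9 and Upk2 were found together in 15 cells, where the product gave 5.09, with 3, 0, 3 and 9 cells on the plates in letter order. Of these 15 cells, 13 were medullary-marker cells. Their Spearman correlation was 0.48, -0.08, 0.30 and 0.36 on these plates. Plet1 and Upk2 shared 7 cells, where the product gave 2.90, and 6 of the 7 were on plate e. Cd9, Upk2 and Plet1 were each read in a larger share of medullary-marker cells than of other thymic cells. The product pools all classes of a plate and was not taken within classes, so it does not separate pairing from the makeup of the classes. Plet1 and Prom1 shared 1 cell (product 2.34) and Cd9 and Prom1 shared 2 (product 4.45). By first-run molecules, Cd9 and Upk2 shared 6 cells (product 1.31) and Plet1 and Upk2 also 6 (product 2.03).

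**Figure D5:**
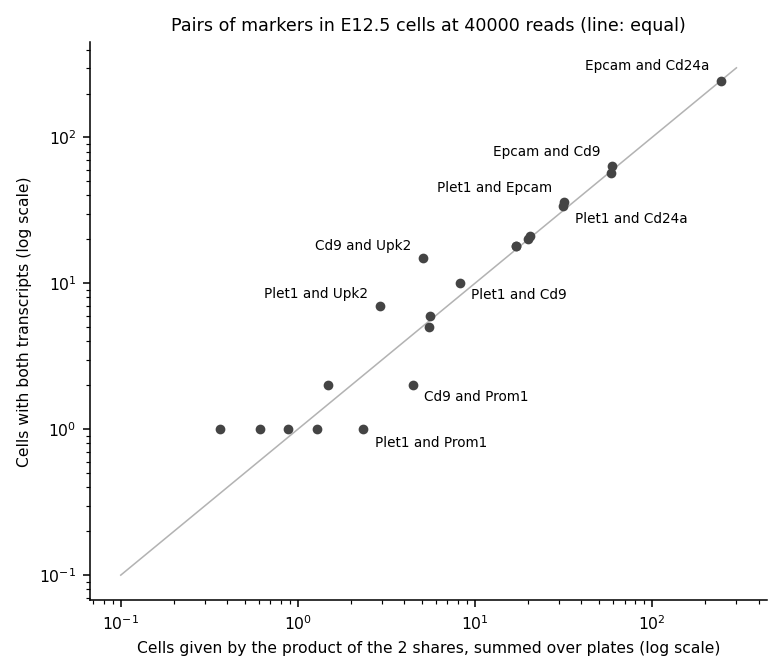
Number of E12.5 cells with both transcripts of a pair at 40000 reads (vertical, log scale) against the number given by the product of the pair's shares within plates (horizontal, log scale), for pairs without Ly6a found in at least 1 cell; the line marks equal numbers. Cd9 with Upk2 (15 against 5.09) and Plet1 with Upk2 (7 against 2.90) lie above the line, with all classes of cells pooled. Plet1 with Epcam (36 against 31.8) could not exceed the 37 cells with Plet1.

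The genes whose E12.5 pattern was most like each sorted marker were ranked by the mean within-plate Spearman correlation over 355 cells and 7200 genes. For Epcam they included Gcm2, Gata3, Pla2g7 and Gm20721, at 0.29 to 0.33; Gcm2 encodes the transcription factor that specifies the parathyroid and was a gate gene of the class with the most Epcam. For Plet1 they were RP23-78N8.3, Kcnj15, Asb6, Mob1b and Cldn4, at 0.20 to 0.25, which in counts this sparse is too weak to single out a gene; Cldn4 was one of the medullary-marker gate genes. The correlation with a cell's total first-run molecules was -0.29 to 0.13 for Epcam and -0.08 to 0.17 for Plet1.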

How the data were processed

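Single EPCAM+PLET1+ cells were counted per well. The authors demultiplexed reads and mapped them with STAR, counted by HTSeq's union rules in the BD Precise WTA pipeline (2.0), and corrected molecular indices (DBEC); per the file headers the genome was GRCm38.p6 with GENCODE vM18, while the submitters' notes name GRCm38.p5. The deposited values used are raw read counts per gene and well and DBEC molecule counts. Counts came from the files of the single samples, whose labels give the plate letter, as the sum of a plate's first run and 1 repeat run. The table of the whole series, whose columns give a stage and a plate number, equals such sums exactly and supplied only the list of wells; 89 well barcodes occur on all 8 plates, so a barcode names a cell only within its plate. No doublet caller was run on the sorted wells.

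Protein-coding genes were kept, with cells of 40000 to 400000 reads, 500 to 5000 genes and at most 50% mitochondrial reads. Summed reads of each plate, or of each class with at least 3 cells on a plate, were tested with edgeR 4.0.16 (TMM, filterByExpr, quasi-likelihood, adjusted p under 0.05); DESeq2 1.42.0 was an alternative, and scripts were tested on simulated data. CPM are per 1000000 protein-coding reads. Fits on molecules added the molecules of both runs of a plate, so an RNA seen in both could be counted in each. They tested fewer genes than the fits on reads. Plate letters are not said to pair the stages. Correlations of deviations were -0.02 to 0.06 for the 3 shared letters and 0.02 to 0.15 for classes, which share a plate's library by construction. Values this close cannot show whether letters pair. Class fits were repeated with the plate as a block. Named genes were all members, up to 4 called genes with the largest change in each list, and the 5 most like Plet1 and Epcam; some of these are not reported here. Members, lists and gates were chosen with earlier results of these data known. Intervals and limits at 0 (3 counts) cover counting error only.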

Additional observations from a re-analysis of the deposited data

Results flagged for a closer look

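Of 32 sets of 4 plates examined, 5 held a plate far from the other 3. The rule flags about 1 in 20 sets of independent, normally spread values. These sets share plates and genes, and some are mostly 0, so the count cannot be set against chance. On E10.5 plate a, Epcam was read in 55.7% of cells against 83.5 to 87.1% on the other plates, and neither Plet1 nor Epcam in 38.6% against 12.0 to 13.2%; this plate had the fewest molecules per cell, and the part of depth in these values was not tested. Prom1 was read in 43.5% of cells on E10.5 plate c against 8.70 to 14.3%, and reached 60.8 CPM on E12.5 plate c against 3.49 to 8.95 CPM. Upk2 reached 2.04 CPM on E10.5 plate b against 0 to 0.070 CPM.

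E12.5 plate b was sequenced in 1 run, is not in the deposited table and entered no main comparison. Of its 92 cells, 4.35% had a Plet1 read and 73.9% an Epcam read at full depth, and none had a Upk2 read. In the 32 wells at positions absent from the table on every plate, the most reads in 1 well were 30 for Plet1 and 67 for Epcam.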

How the results depend on the processing

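Of 338 refitted log2 fold changes of members, 299 kept their direction and side of the threshold, and Plet1 stayed lower at E12.5 and called in all 18 alternatives (log2 fold change -2.62 to -1.92, edgeR or DESeq2 adjusted p at most 0.041), E12.5 plate b and the replicate block over letters a, c and d included. In the stage comparison, DESeq2, RLE factors, no filter, all wells and, added after seeing the data, the shared letters without the block each called 2 members, Plet1 and Upk2, and leaving out single plates called 1 to 3, with Prom1 as the third without E12.5 plate c. In the medullary comparison, 0 members were called but for 2 in DESeq2 and 1 in molecules. In the parathyroid comparison, 1 was called but 2 in DESeq2, in molecules and with the gate at 200 CPM, 0 with the gate at 10 CPM, and 0 to 1 without single plates. In the neural comparison, 1 was called but 2 in molecules, and 0 with the replicate block, with the gate at 10 CPM or without any single plate (0 to 0). On the shared letters the block also ended the Upk2 call between stages (adjusted p = 0.056 with it, 0.025 without), and it changed no other call of a member; over all genes it took the median to -0.62, -0.90 and -0.53 on the log2 scale in these 3 comparisons, from -0.07, -0.15 and -0.07, where RLE factors gave 0.03, 0.02 and -0.03. Counts of all called genes also depended on the fit: between stages 437 rose and 281 fell in edgeR, 724 and 545 in DESeq2 and 133 and 82 with the replicate block (3 plates a stage; 230 and 152 on those plates without it). Calls rose from 2 to 200 (medullary), 158 to 900 (parathyroid) and 70 to 518 (neural) in DESeq2, and to 30, 351 and 130 in molecules; without plate a the parathyroid test called 13 higher and 2 lower, and without plate c the neural test 3 higher and 0 lower. The parathyroid split of 97 higher and 61 lower was 130 and 299 over all annotated genes and 143 and 454 with the gate at 200 CPM. The cause of these changes was not tested.

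Signs also turned for members not called in the comparison. Epcam between stages ranged from -0.20 to 0.17 without single plates, and was -0.38 without neural-marker and parathyroid-marker cells. Epcam in medullary-marker cells was -0.023 without the filter and -0.16 to 0.20 without single plates. In parathyroid-marker cells Cd9 was 0.21 with the gate at 10 CPM, and Prom1 was 0.15 in DESeq2 and with RLE factors, 1.23 in all wells and -1.77 to 2.53 without single plates. Prom1 in neural-marker cells was -1.52 to 0.12 without single plates. Without single plates, the uncalled log2 fold changes of Bst2 between stages (-4.07 to -3.02), Upk2 in medullary-marker (3.23 to 4.58), Plet1 in parathyroid-marker (0.40 to 1.46) and Plet1 in neural-marker cells (-4.06 to -2.77) kept their sign; with the replicate block Upk2 between stages was 8.90. Mean shares of cells with Plet1 or Epcam, and of E12.5 cells with both or neither, moved by less than the SD between plates under each alternative.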
